A study of Mus musculus with 5 samples.

Results

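Complement genes of the knee joint were followed across 5 Affymetrix arrays of whole tibio-femoral joints, as 8 genes on 10 of 22690 probe sets. The members were chosen by name from 9 listed genes: the C1q chain genes C1qa, C1qb and C1qc, the protease gene C1s, the genes C3, C4b, Cfb and Cfp, and the inhibitor gene Serping1. A probe set was taken where the platform annotation gave 1 of these symbols. C1s was found under its present symbol C1s1, the C4b probe set carried the symbols C4a and C4b together, C1qb had 3 probe sets, and C3 was not analysed here because no probe set carried its symbol.

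The joints came from male mice of a C57/Bl6:129 hybrid background, 3 months old. The wildtype animals (2 pools) were compared with animals null for both epiphycan and biglycan, small leucine-rich proteoglycans of cartilage, bone and tendon (3 double-null pools). Each pool held the 6 joints of 3 mice, so a replicate was a pool of animals and the spread between single mice was not measured. The arrays came as 2 value tables of 2 platform records. Table A held wildtype pool 2 and double-null pool 3, and table B held wildtype pool 1 and double-null pools 1 and 2.

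Complement is a set of plasma and tissue proteins that tag and attack targets in a cascade. In the classical pathway C1q, built of A, B and C chains, binds a surface and activates the attached proteases C1r and C1s, and C1s then cleaves C4 and C2. The alternative pathway runs through factor B, with properdin stabilising its convertase, while C1 inhibitor, encoded by Serping1, inactivates C1r and C1s. C1q is made mainly by macrophages and other myeloid cells, and C1r, C1s, C4 and C1 inhibitor are made by fibroblasts and other stromal cells as well as by liver. C1q is also known to bind biglycan and its relative decorin.

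Upstream sequences are shown first for C1qb and C1qc, genes of C1q chains whose groups overlapped, and for C1s1, the member with the largest difference between genotypes. Each is the 150 bases before the outermost annotated start, 5′ to 3′ on the gene's own strand, from RefSeq on GRCm38.p6. The table held such a window for C1qb, C1qc, C1s1 and Cfp and not for C1qa, C4b, Cfb and Serping1. Capitals mark matches, on either strand, to GAGGAA (a purine-rich core bound by ETS factors such as PU.1), TTCNNNGAA (the STAT palindrome) or TTNNGNAA (a loose form of the C/EBP site).
C1qb, chr4:136886201-136886350, minus strand: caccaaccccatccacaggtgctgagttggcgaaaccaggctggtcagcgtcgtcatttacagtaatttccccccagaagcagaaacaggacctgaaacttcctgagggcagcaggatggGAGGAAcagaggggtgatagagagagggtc
C1qc, chr4:136892937-136893086, minus strand: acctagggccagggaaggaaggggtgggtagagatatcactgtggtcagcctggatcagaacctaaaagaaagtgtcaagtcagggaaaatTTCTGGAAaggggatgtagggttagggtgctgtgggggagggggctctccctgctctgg
C1s1, chr6:124542393-124542542, minus strand: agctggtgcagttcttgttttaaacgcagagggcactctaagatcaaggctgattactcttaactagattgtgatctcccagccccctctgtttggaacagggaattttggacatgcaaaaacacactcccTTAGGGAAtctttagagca

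The GAGGAA match of C1qb ended 24 bases before the start. The TTNNGNAA matches of C1qc and C1s1 ended 51 and 11 bases before it, and none of these windows held TTCNNNGAA. The window of Cfp, which is not printed, held no match to any of the motifs. Of 22802 windows of the same length, 14.3% held GAGGAA, 24.1% held TTNNGNAA and 4.43% held TTCNNNGAA, so these matches are frequent letters and are given as a description of the sequence. In gene order C1qb, C1qc and C1qa followed each other directly on chromosome 4. On chromosome 6 C1s1 lay between C1ra and C1rb, next to which came the related gene C1s2, and on chromosome 17 C4b and C4a were separated by Cyp21a1, with C2 directly beside Cfb.

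The targeted genes were low in the double-null pools. The 3 Bgn probe sets read 2003 to 4063 in wildtype and 7.05 to 224 in double-null pools, and the Epyc probe set read 78.8 and 91.2 against 1.29 to 10.8. The position of these probe sets relative to the deletions is not known here. All 8 chondrocyte markers, among them Col2a1, and 5 measured osteoblast markers lay above the Bacillus control probe sets (array controls for bacterial sequences) on at least 1 array. Differences below are double-null minus wildtype, fitted with limma on quantile-normalised log2(signal + 32) with the table as a term, and adjusted by Benjamini-Hochberg over 22626 probe sets. The added 32 makes the differences of dim probe sets smaller than their signal ratios. Of those probe sets, 6 passed the threshold of 0.05, or 0.0265%, and 0 passed without double-null pool 3. When either wildtype pool is left out, a single wildtype pool remains and the contrast rests on the table of that pool. Whole joints mix many cell types, so fewer cells of a type and less RNA per cell cannot be told apart.

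None of the complement members passed: 0 of 10 probe sets were called with limma, at adjusted p from 0.58 for C1s1 to 0.999 for C1qc. At unadjusted p under 0.05 there were 3 of 10, all higher in the double-null pools, where 2.93% of all probe sets were higher at that level. These 3 were C1s1, C4a/C4b and Serping1, the 3 stromal members, and they were also the members whose normalised values did not overlap between groups (3 of 10 higher, against 9.25% of all probe sets). The count at unadjusted p under 0.05 was 1 when double-null pool 2 was left out. Among the 5 C1q probe sets 0 met either condition. With the table left aside, the pools can be split 2 to 3 in 10 ways. The smallest p of an exact permutation test on any single probe set is therefore 0.1, and it is larger for the fewer splits within tables.

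**Figure D1:**
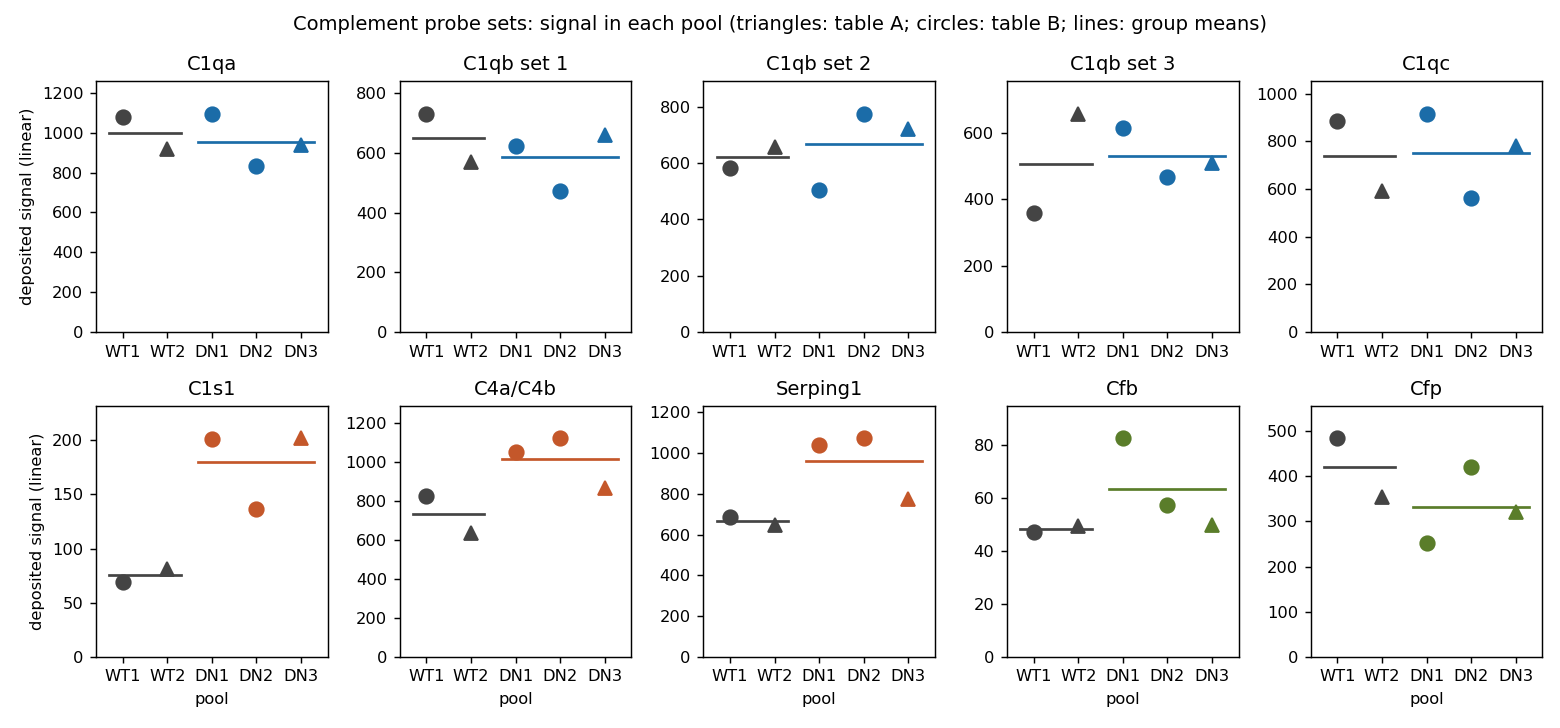
Deposited signal on a linear axis from 0 for each of the 10 complement probe sets in wildtype pools 1 and 2 (WT1, WT2) and double-null pools 1 to 3 (DN1, DN2, DN3), with horizontal lines at group means. The C1s1 panel shows 69.2 and 81.5 in wildtype against 136 to 202 in double-null pools, while the 5 C1q panels overlap.

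C1s1 encodes the C1s protease, which cuts C4 and C2 once C1q has bound. Its signal was 69.2 and 81.5 in wildtype pools 1 and 2, 201 in double-null pool 1, 136 in double-null pool 2 and 202 in double-null pool 3. Every double-null pool lay above both wildtype pools, and double-null pool 2 was the lowest of the 3. Against the wildtype pool of its own table, the signal was 2.91 times as high in double-null pool 1, 1.97 times in double-null pool 2 and 2.47 times in double-null pool 3.

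The fitted difference of C1s1 was 1.04 ± 0.23 on the log2 scale (SE, 2 wildtype and 3 double-null pools, 95% interval 0.48 to 1.60). It missed the threshold, with limma unadjusted p = 0.0033 and adjusted p = 0.58. It was 1.04 on table A and 1.04 on table B, the closest agreement between tables among the members. Only 0.239% of all probe sets had a larger difference. C1s1 was dim but above the highest Bacillus control, 27.5 to 63.5 per array, on 5 of 5 arrays. Over the alternatives, which include other added constants, it lay between 0.63 and 1.33. Its probe set carries the suffix of probes shared between transcripts, and whether it also reads C1s2 was not tested.

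C4b encodes the C4 protein of the classical pathway, whose cleavage product attaches to surfaces, and C4a is its close relative, listed as a transcribed pseudogene in the RefSeq table. Their shared probe set read 824 and 638 in wildtype pools 1 and 2, against 1052, 1121 and 865 in double-null pools 1 to 3. The groups did not overlap, although double-null pool 3 lay only slightly above wildtype pool 1. The ratio to the wildtype pool of the same table was 1.28, 1.36 and 1.36 in double-null pools 1 to 3. The log2 difference was 0.38 ± 0.14 (SE; 95% interval 0.055 to 0.71), with 0.44 on table A and 0.34 on table B (limma unadjusted p = 0.028, adjusted p = 0.88).

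Serping1 encodes C1 inhibitor, the serpin that removes active C1r and C1s. It read 687 and 645 in wildtype pools 1 and 2, and 1039, 1071 and 773 in double-null pools 1 to 3. All double-null pools lay above both wildtype pools, with double-null pool 3 the lowest, as for C4a/C4b. The log2 difference was 0.43 ± 0.14 (SE; 95% interval 0.089 to 0.78), at 0.27 on table A and 0.56 on table B (limma unadjusted p = 0.021, adjusted p = 0.83). Without wildtype pool 1 the contrast rests on table A, so its value of 0.27 is not a separate check. The protease gene C1s1 and the gene of its inhibitor were thus both higher in the double-null pools in level, by 1.04 and 0.43, and neither passed.

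The C1q chain genes, which with C1r and C1s make the first complex of the classical pathway, gave no such separation. C1qa read 1080 and 916 in wildtype pools 1 and 2 and 1095, 835 and 936 in double-null pools 1 to 3. C1qc read 886 and 593 against 916, 561 and 779. The first C1qb probe set (1417063_at) read 731 and 569 against 622, 474 and 660. On all 3 of these, wildtype pool 1 lay above wildtype pool 2 and double-null pool 2 was the lowest of the 5.

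The fitted log2 differences were -0.11 ± 0.16 for C1qa (SE; 95% interval -0.49 to 0.27), -0.15 ± 0.20 for that C1qb probe set (-0.64 to 0.33) and -0.017 ± 0.25 for C1qc (-0.61 to 0.58). A difference as large as that fitted for C1s1 falls outside these 3 intervals, while differences inside them are not excluded by these pools. The C1qc interval also holds the values fitted for C4a/C4b and Serping1, 0.38 and 0.43. The tables differed in sign for all 3: table A gave 0.032, 0.22 and 0.41 and table B gave -0.21, -0.43 and -0.33 for C1qa, C1qb and C1qc. Each table has a single wildtype pool, so table and pool cannot be told apart.

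The other C1qb probe sets, both with the suffix x for probes that may bind other transcripts, did not follow the first. The second (1434366_x_at) read 581 and 658 in wildtype and 504, 774 and 720 in double-null pools 1 to 3, with double-null pool 2 the highest in place of the lowest. The third (1437726_x_at) read 357 and 656 against 612, 465 and 509, with wildtype pool 1 the lowest. Their log2 differences were 0.11 ± 0.20 and 0.16 ± 0.23 (SE), opposite in sign to the first. The 3 probe sets of this gene thus ordered the pools in 3 ways, and the value of C1qb depends on the probe set read.

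**Figure D2:**
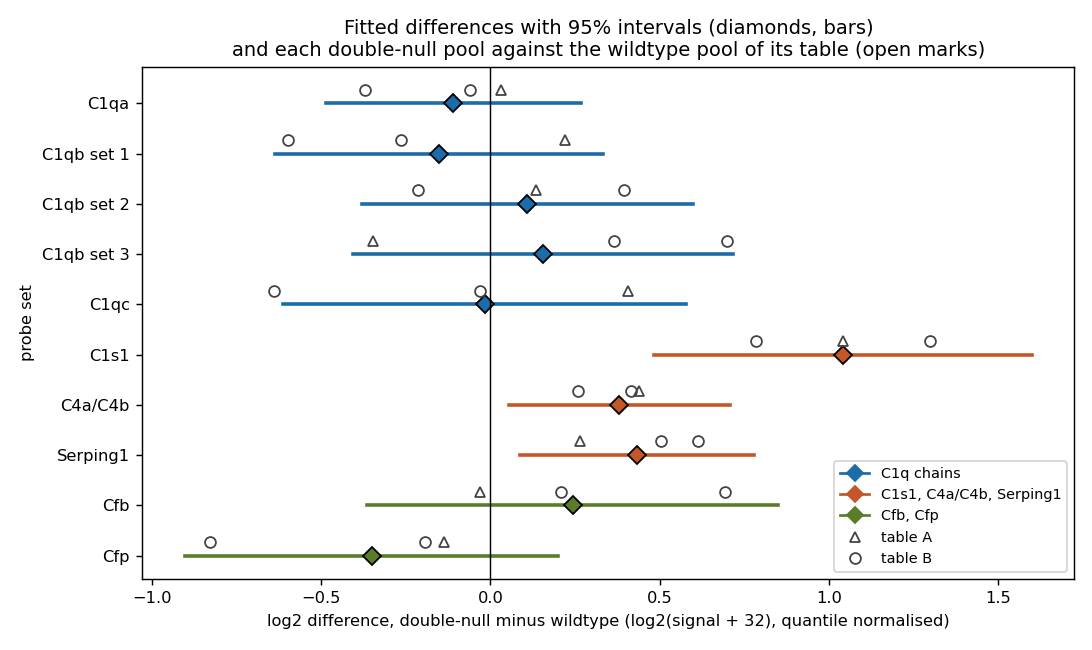
Fitted log2 difference, double-null minus wildtype, for each complement probe set (diamond) with its 95% interval (bar), and each double-null pool against the wildtype pool of its table (open triangle, table A; open circles, table B). The intervals of C1s1, C4a/C4b and Serping1 lie above 0, from 0.055 for the lowest bound of C4a/C4b, and those of the 5 C1q probe sets, Cfb and Cfp cross 0.

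The alternative pathway members went separate ways. Cfb encodes factor B, the protease of the alternative pathway convertase. It was the dimmest member, at 47.1 and 49.6 in wildtype pools 1 and 2 and 82.6, 57.5 and 49.9 in double-null pools 1 to 3. In double-null pool 2 it lay below the highest Bacillus control of that array, 63.5. Double-null pool 1 alone stood clearly above the rest. The deposited signals did not overlap, by 49.9 against 49.6, but the normalised values did. The log2 difference was 0.24 ± 0.25 (SE; adjusted p = 0.98 with limma), at -0.032 on table A and 0.45 on table B.

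Cfp encodes properdin, which stabilises the alternative convertase and is made by neutrophils and other myeloid cells. It read 484 and 355 in wildtype pools 1 and 2, and 253, 420 and 321 in double-null pools 1 to 3. Each double-null pool lay below the wildtype pool of its own table, by log2 differences of -0.83, -0.19 and -0.14 for pools 1 to 3, a pattern seen in 17.9% of all probe sets. The groups overlapped, because double-null pool 2 lay above wildtype pool 2. The fitted log2 difference was -0.35 ± 0.23 (SE; limma adjusted p = 0.94), and it came to -0.16 when double-null pool 1 was left out. Without wildtype pool 1, where the contrast rests on table A alone, it was -0.14.

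Set side by side, the C1q probe sets had a median log2 difference of -0.017 and the stromal members C1s1, C4a/C4b and Serping1 one of 0.43, beside -0.0036 over all probe sets. With Cfb counted among the stromal members the median was 0.41, and with only the C1q probe sets without the x suffix (picked once their values were known) that of C1q was -0.11. On table A the mean difference was 0.090 for the C1q probe sets and 0.58 for the stromal members, and on table B it was -0.071 and 0.65. Taking in each pool the mean deviation of the stromal members less that of C1q, the values were -0.36 and -0.42 in wildtype pools 1 and 2 and 0.30, 0.41 and 0.074 in double-null pools 1 to 3. The sides were named with earlier results of the same arrays known, so no test was made of this difference.

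Marker genes of the cells concerned were read beside these values, as a description. Their lists were chosen with earlier results of these data known. Of 20 stromal fibroblast markers 19 were measured, 16 with a positive and 3 with a negative log2 difference (47.6% of all genes were positive) and a median of 0.39. None passed with limma over all probe sets, where 0.0161% of genes read this way did. At unadjusted p under 0.05 there were 10 of 19 higher, against 2.87% of genes. In normalised values 12 of 19 lay above both wildtype pools in every double-null pool, against 8.93%. Their summed signal ran from 39847 to 58942 in wildtype and from 54607 to 64845 in double-null pools, and 0 of 19 lay below the Bacillus controls on all arrays. The 3 brightest were Col1a2 and Col1a1, the chains of type I collagen, at -0.099 and -0.041, and Col3a1, the chain of type III collagen, at 1.46. Col1a2 and Col1a1 are among the brightest probe sets of the arrays, where quantile normalisation leaves little room for a difference. Of the 19 markers only Col3a1, Lum, Col6a1 and Col6a2 had larger differences than C1s1. The part of stromal content in the values of C1s1, C4a/C4b and Serping1 was not tested.

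The pool pattern of the stromal markers was close to that of C1s1 and less so to the other stromal members. The mean deviation of the 19 markers was -0.29 and -0.30 in wildtype pools 1 and 2 and 0.29, 0.027 and 0.29 in double-null pools 1 to 3. C1s1 stood at -0.70, -0.51, 0.60, 0.086 and 0.53 in the same order, with double-null pool 2 lowest among the double-null pools in both. C4a/C4b (-0.074, -0.45, 0.19, 0.34 and -0.0082) and Serping1 (-0.24, -0.33, 0.27, 0.37 and -0.067) were highest in double-null pool 2 and lowest in double-null pool 3 of the double-null pools.

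**Figure D3:**
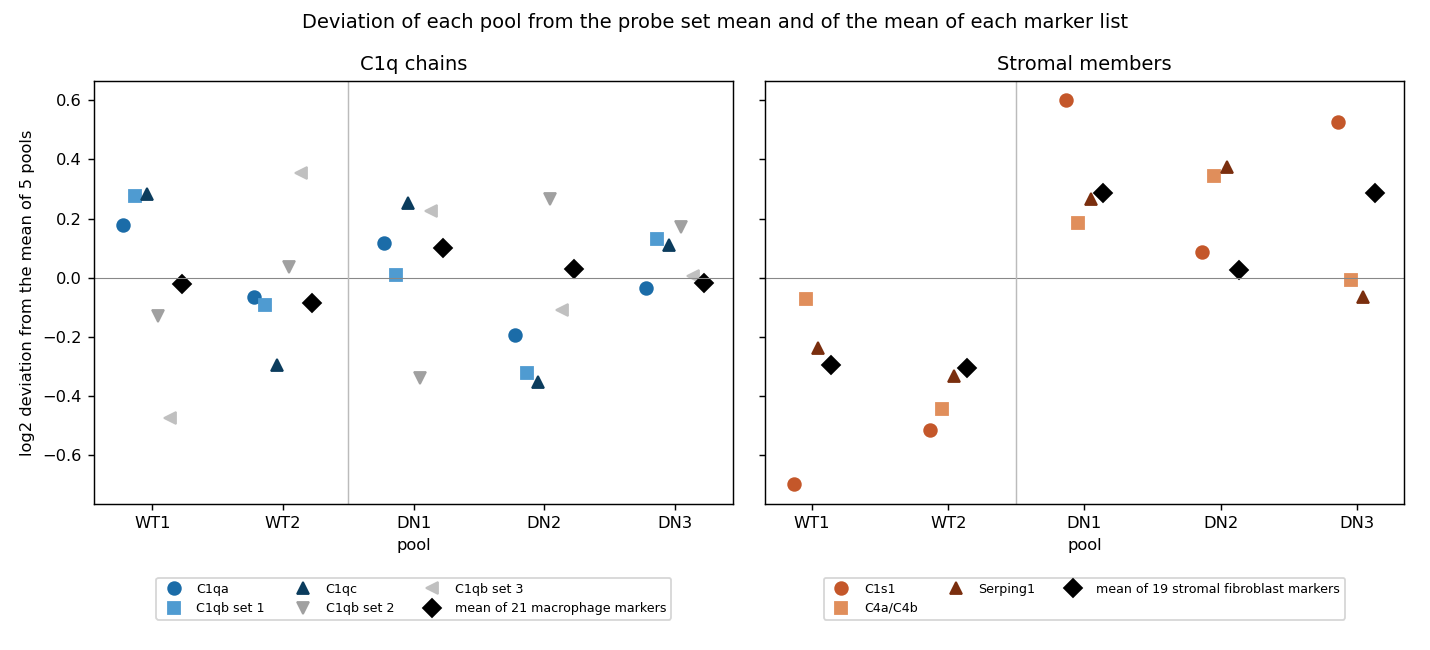
Log2 deviation of each pool from the mean of the 5 pools, on the left for the C1q probe sets with the mean of 21 macrophage markers, on the right for C1s1, C4a/C4b and Serping1 with the mean of 19 stromal fibroblast markers; the vertical line separates wildtype from double-null pools. C1qa, C1qc and the first C1qb set are lowest in double-null pool 2, whereas the 3 stromal members are below 0 in both wildtype pools.

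Macrophage markers were read in the same way. Of 22 markers 21 were measured, 11 positive and 10 negative, with a median log2 difference of 0.018 and 0 past the threshold with limma (2 higher and 0 lower at unadjusted p under 0.05, against 2.87% and 2.51% of all genes). Normalised values did not overlap for 4 higher, Mrc1, Cd14, Trem2 and Folr2, and 1 lower, Tyrobp (8.93% and 10.8% of all genes). The deposited signals of Trem2, Folr2 and Tyrobp did overlap, and Trem2 was near the Bacillus controls. The summed signal of the 21 markers was 11483 to 13343 in wildtype and 10815 to 13332 in double-null pools, and Marco alone lay below the Bacillus controls on all arrays. The brightest were Tyrobp, a signalling adaptor of myeloid cells, at -0.25, Csf1r, the receptor for the macrophage growth factor CSF1, at -0.090, and the lysosomal protease gene Ctss at 0.082. The mean deviation of the markers ran from -0.085 in wildtype pool 2 to 0.099 in double-null pool 1, and that of all 5 C1q probe sets from -0.14 in double-null pool 2 to 0.077 in double-null pool 3. The part of macrophage content in the C1q values was not tested.

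The genes closest to the mean profile of all 5 C1q probe sets over the 5 arrays were Arhgap17, Snapin, Stam2, Sfrp4, Psme4 and Sec61a2. Their root-mean-square distances were 0.016 to 0.032 on the log2 scale, among 3056 genes of similar spread. None of these is on the macrophage list. The averaged profile is nearly flat, with an SD of 0.087, because the x probe sets oppose the others. For the 3 probe sets without the suffix, with an SD of 0.22, the closest named genes were Lin37, Tsc2, Tpcn1, Spryd3 and Vasp at 0.032 to 0.043, behind 4930470P17Rik at 0.024, among 6732 genes, a comparison added with the values in view.

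Of 43 other complement genes 32 had a probe set with 1 symbol, and none passed with limma, while 2 were higher and 2 lower at unadjusted p under 0.05 (2.87% and 2.51% of all genes). The median log2 difference was -0.020, with 14 positive and 18 negative, beside -0.012 over all genes. Normalised values did not overlap for 3 higher and 3 lower genes (8.93% and 10.8% of all genes). Cfd was among those not analysed here. C8b, C8g, Cd55b and C4bp lay below the Bacillus controls on all arrays.

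The 4 genes at unadjusted p under 0.05 were Cd59a, Cd55, Vtn and C9. Cd59a, a membrane inhibitor of the terminal attack complex, read 526 and 590 in wildtype and 217, 285 and 435 in double-null pools 1 to 3, with groups apart and a log2 difference of -0.72 (limma unadjusted p = 0.0091, adjusted p = 0.77). Cd55, which speeds the decay of convertases on the cell surface, read 74.4 and 73.8 against 151, 125 and 111, apart in the other direction at 0.61 (adjusted p = 0.88). Cd59a was thus lower and Cd55 higher in level in every double-null pool, where 10.8% and 8.93% of all genes were lower and higher without overlap. Other membrane genes of the list did not share a direction. Cd46 at -0.12 and Cr1l at 0.030 overlapped, as did the dim Cd55b, while Cr2 at -0.31 was lower without overlap. Vtn, encoding vitronectin, which also blocks the terminal complex, read 31.5 and 56.2 against 64.7, 59.2 and 93.1 (0.58, adjusted p = 0.88). It lay below the highest Bacillus control in wildtype pool 1 (38.5) and in double-null pool 2 (63.5). C9, a pore-forming terminal component, was near the controls in most pools, at 36.2 and 99.9 against 17.4, 11.2 and 54.9 (-0.55, adjusted p = 0.88).

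Genes that act directly with the members were read next. C1ra, encoding the C1r protease and lying beside C1s1, read 155 and 142 in wildtype and 172, 165 and 205 in double-null pools 1 to 3. Its groups did not overlap either, at a smaller log2 difference of 0.29 ± 0.19 (SE; limma adjusted p = 0.94). C2, the substrate of C1s that neighbours Cfb, was dim and scattered, at 76.7 and 14.4 against 66.7, 45.7 and 44.5 (0.16). Cfi, encoding the protease that inactivates C3b and C4b, was at 0.39 and overlapped. Among the receptors, C5ar1 for C5a was at -0.37 and C3ar1 for C3a at 0.25, both with overlapping groups and neither past the threshold.

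**Figure D4:**
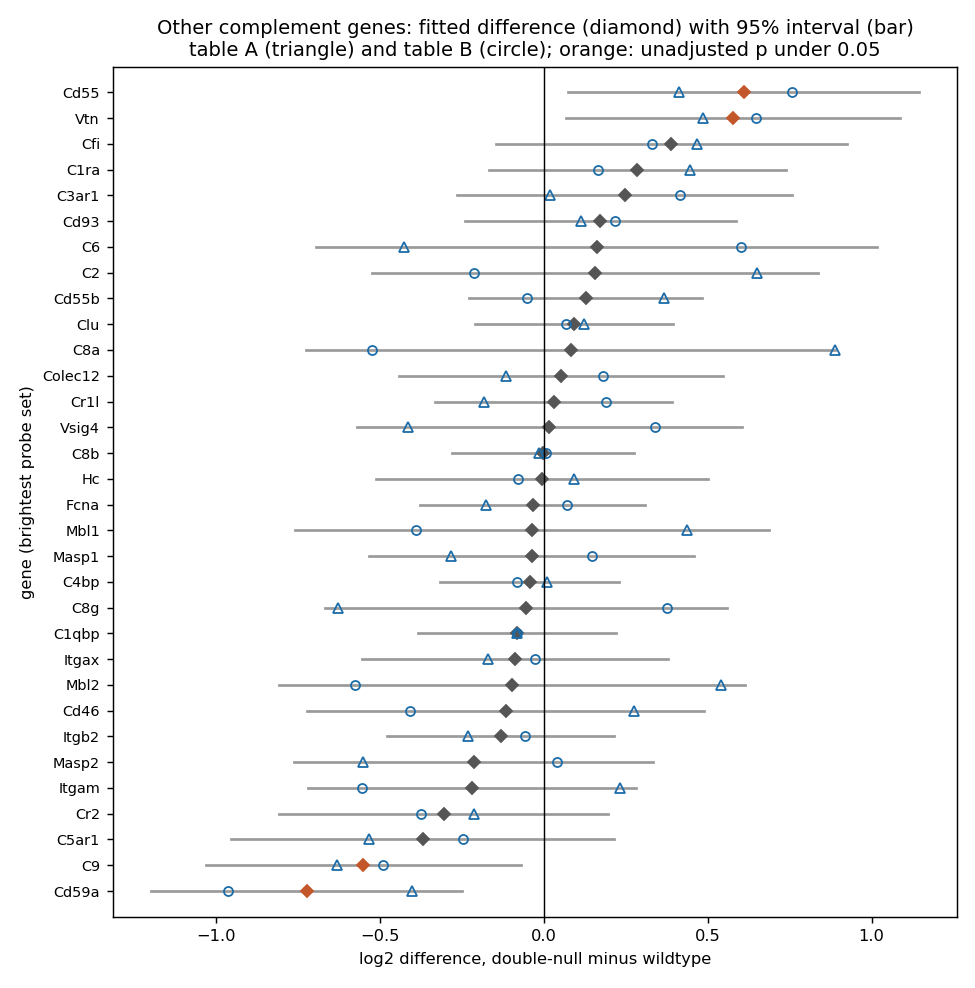
Fitted log2 difference, double-null minus wildtype, for 32 other complement genes (diamond, orange where unadjusted p was under 0.05) with its 95% interval (bar) and the values on table A (triangle) and table B (circle). Cd55 at 0.61 and Cd59a at -0.72 mark the ends, with both tables on the same side of 0 for each.

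Other cells that make complement, and inducers of its genes, were measured as lists. Neutrophil markers, of cells that make properdin, had 11 of 12 negative log2 differences with a median of -0.12 and 0 past the threshold with limma, also 0 at unadjusted p under 0.05. Their summed signal was 96072 to 151831 in wildtype and 94476 to 132202 in double-null pools. S100a8, S100a9 and Ngp, the brightest, were at 0.0048, -0.0048 and -0.033. Quantile normalisation gives the very brightest probe sets nearly the same values on every array, so these 3 differences were bound to be near 0. The deposited signal of S100a8 was 25761 and 15941 in wildtype and 15422, 24381 and 19857 in double-null pools 1 to 3. Inducers and acute phase genes, which include factors that drive C4, Cfb and Serping1 in inflammation, had 12 measured members with a median of -0.079, 5 positive and 7 negative. The brightest were Stat3 at -0.062, Cebpb at -0.096 and Cebpd at -0.25, and Ifng lay below the Bacillus controls on all arrays. Normalised values were apart for 1 higher and 3 lower genes (8.93% and 10.8% of all genes). The higher was Socs3, a target of STAT3, at 0.51, and the lower were Il6ra at -0.53, Ifng at -0.46 and Cebpb. Il6ra was the only 1 at unadjusted p under 0.05 with limma, where 2.51% of all genes were lower. Tnf was at 0.38 and Il6 at 0.29, both below the highest Bacillus control on most arrays. None of the 12 passed.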

How the data were processed

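The authors deposited linear intensities, 1 per probe set. MAS5 is named in the submitters' processing notes, and neither its version nor its scaling target is given. The 2% trimmed mean was near 250.1 on each array. Platform annotation gave 1 symbol to 20393 probe sets, several to 691 and none to 1606. For 20364 probe sets the symbol was read from the GRCm38.p6 gene table by Entrez number, whether or not it had changed.

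Values were taken as log2(signal + 32), quantile normalised over the 5 arrays, and fitted with limma 3.58.1 in R 4.3.3 (genotype and table, intensity trend, two-sided, 2 residual degrees of freedom) over 22626 probe sets without the 64 array controls and with no filter on low values, so all members were tested. Means ± SE belong to the fit and signals are as deposited. Listed genes were read by their brightest probe set. No set test was run. The fit was checked on simulated data.

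Members and lists were chosen with earlier results of these data known. Named genes were all members, the targeted genes, other complement genes with the smallest p plus C1ra, C2, Cfd, C3ar1 and C5ar1, the 3 brightest of each marker list, and the 6 genes nearest to C1q. Alternatives changed scaling, added constant, filter, table term, replicate block, trend, unit of test and pools. The labels share replicate numbers but do not say that they pair pools. The number of arrays limits the precision.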

Additional observations from a re-analysis of the deposited data

How the results depend on the processing

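No member passed the threshold under any of the alternatives run, in 160 values; the lowest adjusted p was 0.11, for C1s1 with 1 row per gene and a filter at the 40th percentile. C1s1, C4a/C4b and Serping1 stayed positive and Cfp negative throughout (0.90 to 1.18, 0.34 to 0.44, 0.27 to 0.56 and -0.51 to -0.14 without single pools), while the sign turned in 8 values of C1q probe sets and 1 of Cfb. Without single pools the values ran from -0.22 to 0.032 for C1qa, -0.43 to 0.22, -0.041 to 0.26 and -0.35 to 0.54 for the C1qb probe sets in the order above, -0.34 to 0.41 for C1qc and -0.032 to 0.45 for Cfb, and C1qc was at 0.032 with median centring and 0.0091 without the table term. Over all probe sets the count called was 6, and it was 19 and 23 with filters at the 40th and 60th percentile, 11 with 1 row per gene and the filter, 1 with probe sets averaged per gene, 0 on table B alone and 0 to 5 without single pools; fewer rows were tested with the filters. With the replicate block in place of the table term 3 passed, and the stromal median was 0.61. Deviations of the pools that share a number correlated at 0.0074 and -0.11. The deviations of 2 wildtype pools mirror each other, so these values cannot show whether the pools are paired. The C1q median was -0.22 on table B alone and -0.22 to 0.14 without single pools. The stromal median was 0.56 on table B alone, 0.38 to 0.56 without single pools, and 0.74 with either form of 1 row per gene, where the C4a/C4b probe set, with several symbols, drops out. The other complement genes tested, 32 or fewer by setting, gave 0 calls in each. Without either array of table A the contrast rests on table B, and without wildtype pool 1 it rests on table A, so these are not separate checks.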

Other observations

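Lists of the remaining joint tissues, read the same way, had 0 genes past the threshold with limma. B cell markers had a median log2 difference of -0.18 over 7 genes (1 lower at unadjusted p under 0.05, against 2.51% of all genes), with Cd79b at -0.27, Cd79a at -0.36 and Ms4a1 at -0.39. Adipocyte markers had a median of -0.098 over 6 genes, and their summed signal was 3852 and 3926 in wildtype against 3254 to 3387 in double-null pools. Within them Fabp4, the fatty acid carrier of fat cells, was lower in every double-null pool, at 2564 ± 23.5 against 1968 ± 68.4 (mean signal ± SD, n = 2 and 3). Its log2 difference was -0.38 (limma unadjusted p = 0.023, adjusted p = 0.85). Fabp4 was the brightest of the list and so weighed most in the sum. It was the 1 of 6 that lay lower without overlap, against 10.8% of all genes. Adipoq was at 0.058 and Retn at -0.19. Chondrocyte markers had a median of -0.20 over 8 genes, with Col2a1 at -0.36, Comp at 0.83 and Col9a1 at -0.42, and their median was 0.16 on table A and -0.45 on table B.

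Erythroid markers had a median of -0.017 over 5 genes (Slc4a1 0.22, Alas2 0.047, Klf1 -0.098) and muscle markers one of -0.095 over 8 genes (Acta1 -0.31, Ckm -0.45, Myl1 0.14). Osteoblast markers had a median of -0.067 over 5 genes (Ibsp 0.022, Alpl -0.11, Dmp1 -0.067), and endothelial markers one of 0.041 over 8 genes (Vwf 0.17, Cldn5 0.15, Pecam1 -0.018).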
